A study of Mus musculus with 28 samples.

Results

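The genes described here encode the CD3 chains and the first signalling proteins of the T cell receptor (TCR): Cd3e, Cd3d, Cd3g, Cd247, Cd4, Lck, Zap70, Lat and Ptprc. They were chosen by symbol, and all 9 were found among the 25124 genes of the table. RNA came from T cells sorted out of the lamina propria of the small intestine of mice, by surface CD45, CD90.2, TCRb and CD4, in 28 libraries. The mice were specific-pathogen-free (SPF), with gut microbes, or germ-free (GF), with none, and had received an antibody against CD3 (aCD3) or an isotype control antibody. All carried the T-bet-ZsGreen reporter, a fluorescent readout of the transcription factor T-bet, so no group lacks it. SPF isotype had 6 libraries and SPF aCD3 had 6, each with 3 females and 3 males, GF isotype had 10 (5 females and 5 males), and GF aCD3 had 6 (F1 and M1 to M5). Libraries are named by sex letter and number. The age of the mice, the dose of antibody and the time to sampling are not given in the sources used here, and the labels do not say whether animals were pooled.

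The CD3 chains carry the signal of a receptor whose own antigen-binding chains have almost no intracellular part. CD3 epsilon pairs with delta or gamma, and the zeta chain from Cd247 forms a homodimer. When the receptor is engaged, the kinase LCK, held near it by the coreceptor CD4, phosphorylates paired tyrosines in these chains. ZAP70 then binds there and phosphorylates the membrane adaptor LAT, on which further signalling proteins assemble. CD45, from Ptprc, is a phosphatase that removes the inhibitory phosphate from LCK. The aCD3 antibody binds the protein complex made by several of these genes, and the sort itself required CD45, CD4 and TCRb on the surface. RNA levels say nothing on how much of each protein stayed there.

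The paired tyrosines lie in the immunoreceptor tyrosine-based activation motif (ITAM), in which each tyrosine is followed, after a pair of other residues, by leucine or isoleucine. The coding sequences of the motifs are shown because they are the sites on which the other proteins described here act. A search of the GENCODE M21 coding sequences on GRCm38 (mm10) found 1 motif in Cd3e, 1 in Cd3d and 1 in Cd3g, and 3 in Cd247. Each sequence runs 5′ to 3′ on the coding strand, and the capitals mark the codons of the paired tyrosines.
Cd3e, motif 1: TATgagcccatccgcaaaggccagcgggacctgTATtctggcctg
Cd3d, motif 1: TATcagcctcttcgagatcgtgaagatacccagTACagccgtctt
Cd3g, motif 1: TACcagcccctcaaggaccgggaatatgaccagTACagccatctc
The first lies on the minus strand at chr9:44999549-45000440, exons 7 to 8 of the Cd3e transcript. The Cd3d motif is on the plus strand at chr9:44986095-44986311, exons 4 to 5, and the Cd3g motif on the minus strand at chr9:44970735-44971268, exons 5 to 6. Each of these motifs is cut by an intron, which the printed sequence leaves out.
Cd247, motif 1: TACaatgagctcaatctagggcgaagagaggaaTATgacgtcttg
Cd247, motif 2: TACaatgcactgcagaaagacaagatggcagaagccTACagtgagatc
Cd247, motif 3: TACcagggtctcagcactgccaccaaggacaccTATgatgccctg
The Cd247 motifs lie on the plus strand at chr1:165856451-165857454, chr1:165858473-165859260 and chr1:165859819-165861042, each over a pair of exons from 3 to 8. The second has 11 codons between its tyrosines, and the other motifs of the chains have 10.

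Values are TPM, each gene's length-corrected share of its library's RNA. The deposited TPM needs care here, because the median of all tested genes moved between groups on it. In addition, 105 histone genes took a mean of 5.51% of it in SPF isotype and 25.7% after aCD3. In GF they took 6.87% and 15.6%. Each library was therefore divided by a median-of-ratios factor (0.712 to 1.23), which brings the typical gene to the same level in all libraries, and the result is called scaled TPM. Without it, the median of all tested genes moved by -0.35 on the log2 scale in SPF aCD3 against isotype and by -0.15 in GF aCD3 against isotype. It moved by 0.15 in GF against SPF isotype, and by 0.34 in GF against SPF aCD3. With the histone genes and the ribosomal RNA row Rn45s taken out, it still moved by -0.13, -0.044, 0.18 and 0.26 in these comparisons. The cause of the shifts was not tested. Reads in genes ranged from 6765527 to 17860620 per library. Library by library, the fewest reads were 759 for Lat and 808 for Zap70, and the most were 42053 for Ptprc.

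Of the 6 libraries labelled GF aCD3, 3 stood apart from the others. Lag3, an inhibitory receptor of activated T cells, was at 559, 508 and 638 scaled TPM in M1, M2 and M5. It was at 8.45, 13.8 and 10.6 in F1, M3 and M4, inside the range of GF isotype, 4.56 to 16.4. In SPF it was at 633 to 1010.4 with aCD3 and at 8.63 to 21.6 with isotype. The histone share split the same libraries, with 23.8%, 23.4% and 26.3% in M1, M2 and M5 and 5.67%, 7.79% and 6.71% in F1, M3 and M4. Whether these 3 low libraries come from mice treated and labelled as stated cannot be told from the sources used here, and every GF aCD3 mean below includes them. The labels are kept as given, and GF results are therefore set beside library values and tests with each library left out. Sample numbers in the column names run from 1 to 12 for SPF and fall into 2 blocks for GF, 25 to 33 and 48 to 54. M1, M2 and M3 are in the first GF block and F1, M4 and M5 in the second. Colonisation and these numbers cannot be told apart, since no SPF library shares a block with a GF one.

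Other cell types' markers moved with the antibody too. In SPF, the summed scaled TPM of 6 B and plasma cell markers was 112 to 259 with isotype, mostly Jchain, and 3.52 to 11.6 with aCD3. Ms4a1, a B cell marker, was at 0 in 17 of the 28 libraries. The sum of 5 gamma delta T and NK cell markers was 31.6 to 47.8 with isotype and 5.37 to 7.35 with aCD3, and that of 4 stromal markers 3.16 to 30.0 and 0.192 to 0.709. The erythroid sum was 2.67 to 6.75 and 0.979 to 1.67, and the epithelial sum 4.59 to 7.65 and 3.56 to 7.67. Cd8a and Cd8b1 together were at 5.16 to 15.7 and 13.7 to 31.1. The 6 myeloid markers summed to 56.6 to 97.9 and 151 to 212, through Cd68 and Cst3, while Lyz2 stayed at or under 1.29. The medians of Fcer1g, Csf1r and Lyz2 fell with aCD3, from 8.80, 0.215 and 0.802 to 3.42, 0.114 and 0.0721. That of Itgam went from 0.0873 to 0.156. The 3 mast cell markers summed to 1.13 to 1.89 and 5.29 to 6.93, a rise carried by Kit, while Cpa3 was at most at 0.846 and the protease Mcpt1 at 0 in all 28 libraries. In GF, the B and plasma cell sum was 9.53 to 104 with isotype and 7.49 to 79.1 with aCD3, the gamma delta T and NK cell sum 14.2 to 58.4 and 7.22 to 27.3, the myeloid sum 61.6 to 78.4 and 59.6 to 165, and the mast cell sum 0.578 to 1.67 and 0.756 to 4.01, highest in M5. The Cd8a and Cd8b1 sum was 1.09 to 53.1 in GF isotype, with a median of 2.54 and the highest value in M4, and 3.05 to 15.5 in GF aCD3. The stromal sum was 0.336 to 1.87 and 0.538 to 2.16 in GF, so GF isotype lay below every SPF isotype library. The part of these cells in the results below was not tested, and in sorted bulk RNA fewer cells of a type and less RNA per cell cannot be told apart.

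All 9 genes were well expressed with isotype. The authors' TPM divides by the genomic span with introns in 99.2% of rows, so the order of levels depends on gene length. In SPF isotype, Cd3e stood highest at 311 ± 19.2 scaled TPM per span (SD, n = 6), followed by Cd3g at 289 ± 27.8, Lck at 242 ± 26.2 and Cd4 at 199.8 ± 8.07. Zap70 followed at 180.4 ± 12.8, Cd3d at 153 ± 30.3, Lat at 149 ± 27.8 and Ptprc at 130.1 ± 6.69. Cd247 was lowest, at 30.4 ± 2.20. Neighbours in this order overlapped within 1 SD, except Lck and Cd4, and Ptprc and Cd247. If all reads are taken as exonic and divided by exon bases in place of span, Cd3g led, then Ptprc, Cd3e, Cd4, Cd247, Lck, Lat, Zap70 and Cd3d. Cd247 has a row of 73431 bases, and per exon base the gene takes the fifth place. The Zap70 row covers only 18.2% of the gene's GENCODE span and 49.7% of its exon bases. The Lck row covers 39.6% of the span and the Cd247 row 36.0% of the exon bases. The levels of these genes, and their changes and ratios below, therefore describe the part counted.

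With aCD3 in SPF mice, 8 of the 9 genes passed the test, 7 higher and 1 lower, and the lead genes were Zap70 (1.91-fold), Cd3d (1.83-fold), Cd3e (1.53-fold) and Cd4 (1.43-fold). This count must be read against the 60.0% of all 12140 tested genes that passed, 30.8% higher and 29.2% lower. The members' median log2 fold change was 0.29, beside -0.0033 over all tested genes. Over all genes, TPM as deposited gave 1726 higher and 6172 lower, and scaled TPM 3744 and 3539. Throughout, the test is limma on log2(scaled TPM + 1) with a sex term, with p-values adjusted by Benjamini-Hochberg over all tested genes. Folds are on that scale, where the added 1 shrinks changes at low levels.

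Zap70, the kinase that docks on the phosphorylated chains, gave the largest change. It read 168, 183, 182, 204, 171 and 174 scaled TPM in SPF isotype F1 to F3 and M1 to M3, and 299, 340.4, 377, 355, 350.5 and 350.3 in SPF aCD3. Every aCD3 library lay above every isotype library. The log2 fold change was 0.93 (SE 0.15, adjusted p = 1.14e-05, limma). It passed the test on TPM as deposited too, at 0.51 (adjusted p = 3.34e-04, limma), and in each other scaling.

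Among the CD3 chains Cd3d changed most. Its scaled TPM was 169.8, 128, 207, 143, 139 and 133 in SPF isotype and 269, 261, 266, 271, 314 and 281 in SPF aCD3. Again the groups did not overlap, with isotype F3 the highest control and aCD3 M2 the highest library. The log2 fold change was 0.87 (SE 0.13, adjusted p = 6.83e-06, limma), and 0.45 on TPM as deposited (adjusted p = 4.20e-05).

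Cd3e, whose protein pairs with both delta and gamma, read 326, 319, 319, 323, 303 and 275 scaled TPM in SPF isotype. In SPF aCD3 it read 425, 502, 460.4, 443, 530.0 and 490.4, all above the controls. Its log2 fold change of 0.61 (SE 0.11, adjusted p = 4.96e-05, limma) was 0.19 on TPM as deposited (adjusted p = 0.0358). Under quantile normalization it missed the threshold at 0.17 (adjusted p = 0.0656, limma).

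Cd4, the coreceptor, read 203, 202, 193, 212, 198 and 189.6 scaled TPM in SPF isotype and 276, 299, 285, 275, 297 and 289 in SPF aCD3. Both groups were tight and did not overlap. The log2 fold change was 0.52 (SE 0.08, adjusted p = 1.43e-05, limma). On TPM as deposited it was 0.10 (adjusted p = 0.294), and under quantile normalization 0.16 (adjusted p = 0.0680, limma), so the call was lost under these. It held on TPM rescaled without Rn45s, a ribosomal RNA row, and the histone genes, at 0.37 (adjusted p = 2.98e-04), and with voom on recovered reads, at 0.52 (adjusted p = 1.06e-05, limma). Separation of all 6 aCD3 libraries above all 6 isotype libraries was thus seen for 4 of the 9 genes, Zap70, Cd3d, Cd3e and Cd4, beside 20.6% of all tested genes.

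The other chains and LCK moved less. Cd3g read 259 to 331 scaled TPM in SPF isotype (median 281) and 320.3 to 399.8 in SPF aCD3 (median 352), with aCD3 F3 alone inside the isotype range. It was higher by 0.29 (SE 0.10, adjusted p = 0.0184, limma) on scaled TPM but at -0.13 (adjusted p = 0.112) on TPM as deposited. Cd247 read 27.8 to 33.1 (median 29.8) and 30.3 to 37.4 (median 34.4), with F3 again the library that overlapped. It was higher by 0.18 (SE 0.07, adjusted p = 0.0353, limma) on scaled TPM and at -0.23 (adjusted p = 0.0508) on TPM as deposited. Lck, the kinase that starts the cascade, read 216 to 287 (median 237) and 264 to 326 (median 276), and only M2 lay above all isotype libraries. Its log2 fold change was 0.23 (SE 0.08, adjusted p = 0.0120, limma) on scaled TPM and -0.19 (adjusted p = 0.0520) on TPM as deposited. These 3 values on TPM as deposited are below 0 but above the median of all genes there, -0.35. Without Rn45s and histone genes Cd3g, Cd247 and Lck were at 0.14, 0.03 and 0.08, and under quantile normalization at -0.07, 0.04 and -0.12. None of the 3 passed in those scalings or on TPM as deposited, and all passed with voom on recovered reads, which uses factors of the same kind as scaled TPM. Leaving out SPF isotype F1, F3 or M2, or SPF aCD3 F1, F2, M2 or M3, took the Cd247 call away, at adjusted p of 0.0526 to 0.101 (limma).

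Lat and Ptprc were the members not called as higher. Lat, the adaptor, read 123 to 201 scaled TPM in SPF isotype (median 144) and 132 to 148 in SPF aCD3 (median 141), and the groups overlapped throughout. Its log2 fold change was -0.07 with a 95% interval of -0.29 to 0.15 (adjusted p = 0.572, limma), and it passed as lower on TPM as deposited (-0.49, adjusted p = 0.00160) and under quantile normalization (-0.34, adjusted p = 0.0103, limma). Ptprc, the CD45 phosphatase, read 127, 143, 128, 131, 125 and 126 in SPF isotype. It read 110.0, 99.9, 87.5, 118, 139 and 119 in SPF aCD3, where 5 of the 6 libraries were below every control and M2 was not. It fell by 0.23 (SE 0.09, adjusted p = 0.0340, limma), and by 0.65 on TPM as deposited (adjusted p = 4.05e-04), and it passed in each other scaling too. Without SPF isotype F2, or SPF aCD3 F2 or F3, the Ptprc call went, at adjusted p of 0.0808 to 0.121 (limma). On TPM as deposited, 5 of the 9 genes passed, 3 higher and 2 lower, beside 64.8% of all genes tested.

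**Figure D1:**
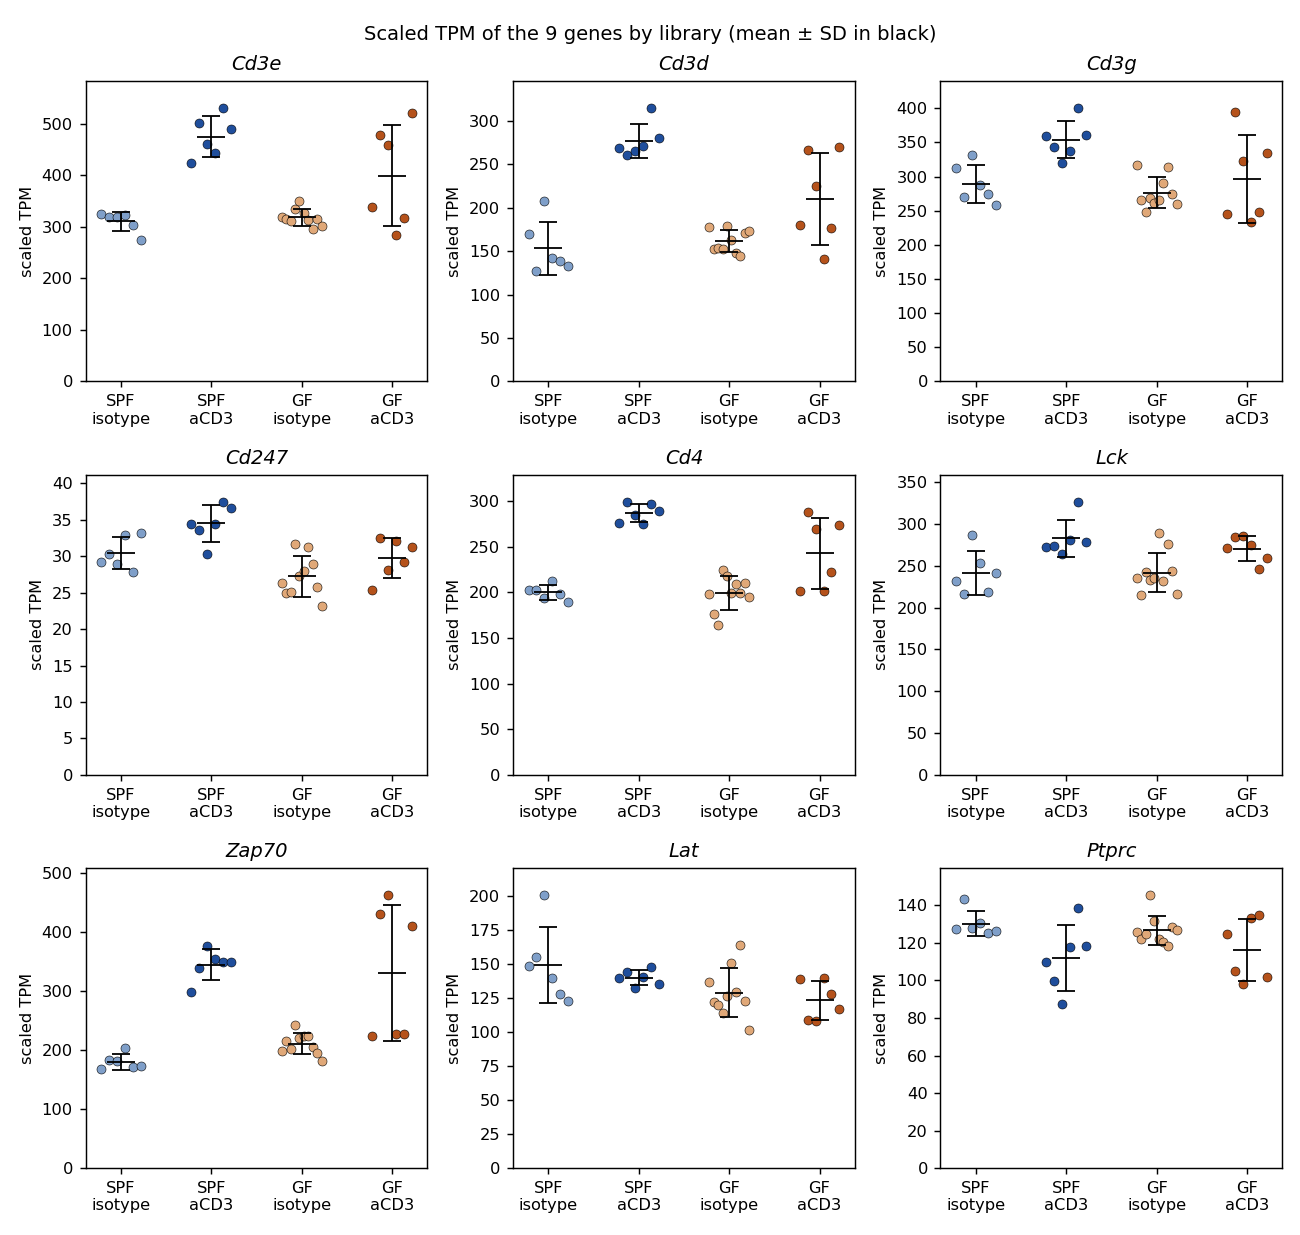
Scaled TPM (y axis, from 0) of each of the 9 genes in every library of the 4 groups (x axis), with the mean ± SD in black. SPF aCD3 lies wholly above SPF isotype for Cd3e, Cd3d, Cd4 and Zap70, and GF aCD3 libraries fall into a high and a low set for the same genes.

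Ratios of TPM between members within a library do not change when a library is scaled by 1 factor, so they show which of the genes moved apart. Quantile normalization, which is no such scaling, was not applied to them. A set of 6 ratios was compared in 4 pairs of groups by a two-sided exact permutation test over libraries, with p-values adjusted over the 24 tests, and was chosen after the values had been seen. In SPF, the log2 ratio of Zap70 to Lck went from -0.42 ± 0.15 (SD, n = 6) with isotype to 0.29 ± 0.15 with aCD3, a difference of 0.71 (exact p = 0.00216, the smallest this design can give, adjusted p = 0.0171). No library of one group reached the other. Lat to Zap70 went from -0.29 ± 0.25 to -1.30 ± 0.14, a difference of -1.01 with the same exact p and no overlap. The chains also moved apart: Cd3d gained 0.58 on Cd3g (exact permutation p = 0.00216) and Cd3e gained 0.32 (exact permutation p = 0.00433), with adjusted p of 0.0171 for both. Cd4 gained 0.29 on Lck (exact permutation p = 0.00433, adjusted p = 0.0171). For Cd247 against Cd3g the difference was -0.11 (exact permutation p = 0.234, adjusted p = 0.351). Leaving out any 1 of the 12 libraries kept the called differences past the threshold, at adjusted p of at most 0.0297 by the exact permutation test.

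**Figure D2:**
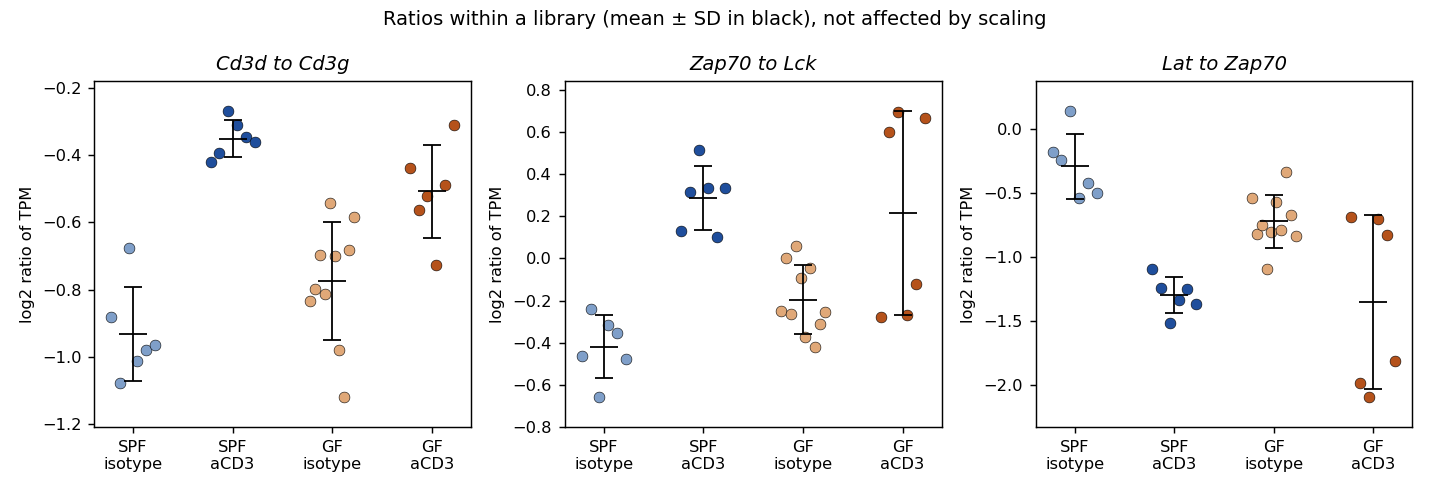
Log2 ratio of TPM within each library (y axis) for Cd3d to Cd3g, Zap70 to Lck and Lat to Zap70 in the 4 groups (x axis), with the mean ± SD in black. In SPF the aCD3 libraries lie apart from the isotype libraries in all 3 ratios, and in the ratios with Zap70, 3 GF aCD3 libraries lie beyond every SPF aCD3 library and 3 fall short of every one.

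In GF mice the same 9 genes gave 2 calls with aCD3, Zap70 (1.46-fold) and Cd4 (1.19-fold), both higher. With only the groups compared or with the replicate block, limma called 0 of the 9, beside 0% of all genes. With no filter on low values it also called 0 of the 9, beside 0.0483%. In the fit reported, 9.81% of all tested genes passed, 5.65% higher and 4.16% lower. The members' median log2 fold change was 0.14, beside -0.0049 over all tested genes. Over all genes, 300 were higher and 562 lower on TPM as deposited, and 686 and 505 on scaled TPM. Zap70 read 182 to 243 scaled TPM in the 10 GF isotype libraries (median 211). In GF aCD3 it read 431, 463 and 411 in M1, M2 and M5, above every SPF aCD3 library as well, and 224, 228 and 227 in F1, M3 and M4, inside the isotype range. The log2 fold change was 0.55 (SE 0.14, adjusted p = 0.0398, limma), and 0.38 on TPM as deposited (adjusted p = 0.0481).

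Cd4 showed the same split, at 288, 269 and 274 scaled TPM in M1, M2 and M5 and 201, 202 and 222 in F1, M3 and M4, beside 164 to 225 in GF isotype. Its log2 fold change was 0.25 (SE 0.08, adjusted p = 0.0454, limma), and 0.08 on TPM as deposited (adjusted p = 0.436). Cd3e read 479, 459.6 and 521 in M1, M2 and M5 and 338, 284 and 317 in the other three, beside 295 to 351 in GF isotype, with a log2 fold change of 0.29 (adjusted p = 0.0590, limma). Cd3d read 267, 225 and 270.0 against 181, 141 and 177, beside 144 to 179, with a log2 fold change of 0.35 (adjusted p = 0.0585, limma). Here F1 also lay just above the isotype range. Cd3g was above every isotype library in M1, M2 and M5 (394, 323 and 335) and below every one in F1, M3 and M4 (245, 233 and 248), beside 249 to 317. Its log2 fold change of 0.06 (adjusted p = 0.685, limma) on scaled TPM, and -0.11 on TPM as deposited, is thus a mean over libraries on both sides of the controls.

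Cd247 read 25.3 to 32.5 scaled TPM in GF aCD3 and 23.2 to 31.7 in GF isotype, with M1 and M3 just above that range, and Lck 247 to 286 and 215 to 289. Their log2 fold changes were 0.09 and 0.14 (adjusted p = 0.328 and 0.156, limma) on scaled TPM, and -0.07 and -0.03 on TPM as deposited. Lat read 108 to 140.1 in GF aCD3 and 102 to 164 in GF isotype, with a log2 fold change of -0.03 (adjusted p = 0.834). Ptprc was below every isotype library in M1, M2 and M5 (105, 98.3 and 102) and inside their range, 119 to 145, in F1, M3 and M4 (124, 133 and 135). Its log2 fold change was -0.14 (adjusted p = 0.253, limma).

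The GF calls rest on single libraries. Leaving out 1 library at a time gave between 0 and 4 called members, while the calls over all tested genes ranged from 0 to 3453. Without GF aCD3 M1, M2 or M5 no member passed and none of all genes did, and Zap70 stood at 0.46, 0.44 and 0.48 (adjusted p = 0.131, 0.150 and 0.141, limma). Without F1, M3 or M4, where 28.4%, 27.4% and 26.5% of all genes passed, there were 4 calls, Cd3e, Cd3d, Cd4 and Zap70, and Cd3e stood at 0.35, 0.38 and 0.35 (adjusted p = 0.0221, 0.00891 and 0.0179). Without GF isotype F1, F3 or F4 there was 1 call, beside 7.31%, 3.98% and 3.10% of all genes. Without GF isotype F5 both calls held, beside 4.75%. Without F2, M1, M2, M3, M4 or M5 there was none, and none of all genes passed either. Within the first block of sample numbers (3 aCD3 and 6 isotype libraries) the log2 fold change of Zap70 was 0.71 (SE 0.24), and within the second (3 and 4) it was 0.40 (SE 0.26). For Cd4 the values were 0.30 and 0.11, for Cd3d 0.42 and 0.26, and for Lat -0.32 and 0.16. No member passed within a block, where 1 gene of the whole table did.

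Of the ratios, Cd3d gained 0.27 on Cd3g in GF (exact permutation p = 0.00500, adjusted p = 0.0171) and did so without any 1 of the 16 libraries. This log2 ratio was -0.73 to -0.31 in GF aCD3 and -1.12 to -0.54 in GF isotype, with 4 of the 6 aCD3 libraries above every isotype library. F1, with Lag3 in the isotype range, was among them, with Cd3d above and Cd3g below every isotype library. The gain was thus not confined to M1, M2 and M5. Cd3e gained 0.22 on Cd3g (exact permutation p = 0.0122, adjusted p = 0.0367), with 3 of the 6 GF aCD3 libraries above every isotype library. That call went without GF isotype F1, M2 or M5 or GF aCD3 F1, M2 or M5, at adjusted p of up to 0.0870 by the exact permutation test. The gain of Zap70 on Lck was 0.41 (exact permutation p = 0.0432, adjusted p = 0.0864). Lat against Zap70 stood at -0.63 (exact permutation p = 0.0315, adjusted p = 0.0687), and passed at adjusted p of as low as 0.0432 without GF aCD3 F1 or M3.

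The isotype groups ask whether colonisation alone goes with other levels of these genes. Between GF and SPF isotype, none of the 9 passed, beside 1.63% of all tested genes (66 higher and 132 lower, or 782 and 92 on TPM as deposited), with log2 fold changes from -0.20 to 0.22. The lowest p-values in limma were those of Cd247 at -0.16 (95% interval -0.29 to -0.02, adjusted p = 0.267) and Lat at -0.20 (-0.40 to -0.01, adjusted p = 0.355), both lower in GF. Voom on recovered reads called none of the 9, beside 1.87% of all genes. TPM as deposited gave 2, Cd3d at 0.25 and Zap70 at 0.38 higher in GF (adjusted p = 0.0317 and 0.0209, limma), beside 7.17%. The ratio of Lat to Zap70, which scaling by 1 factor a library leaves as it is, differed at -0.29 ± 0.25 (SD, n = 6) in SPF and -0.72 ± 0.21 (SD, n = 10) in GF (exact permutation p = 0.00325, adjusted p = 0.0171). In 8 of the 10 GF isotype libraries this ratio was below every SPF isotype library. Zap70 gained 0.22 on Lck (exact permutation p = 0.0170, adjusted p = 0.0453). That call went without SPF isotype F1, F3, M2 or M3, or GF isotype F1 to F5, M2 or M5, at adjusted p of up to 0.0864.

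**Figure D3:**
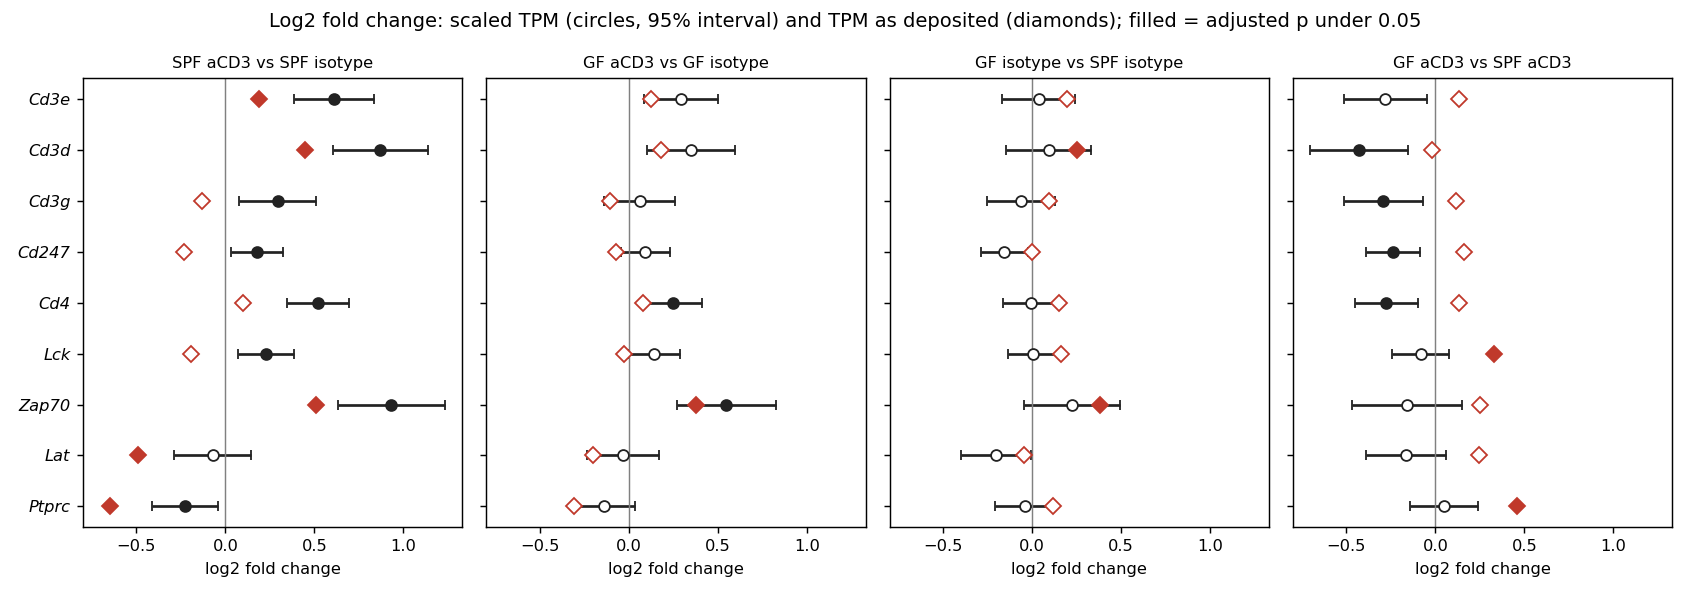
Log2 fold change (x axis) of the 9 genes (y axis) in the 4 comparisons of groups, on scaled TPM with its 95% interval (circles) and on TPM as deposited (diamonds), with filled symbols for an adjusted p under 0.05. Circles and diamonds lie on opposite sides of 0 for Cd3g, Cd247 and Lck in SPF, and for 7 of the 9 genes in GF against SPF aCD3.

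Under aCD3, GF libraries held less of 4 of the 9 genes than SPF libraries on scaled TPM, beside 32.8% of all tested genes, 15.8% higher and 17.0% lower, but 2 genes passed as higher on TPM as deposited, beside 53.3%. Over all genes the split was 1914 higher and 2068 lower on scaled TPM, and 5953 and 543 on TPM as deposited. The 4 were Cd3d at -0.43 (SE 0.13, adjusted p = 0.0180, limma), Cd247 at -0.24 (SE 0.07, adjusted p = 0.0164), Cd4 at -0.28 (SE 0.09, adjusted p = 0.0175) and Cd3g at -0.29 (SE 0.11, adjusted p = 0.0382). With only the groups compared Cd247 alone passed, beside 7.05% of all genes. None of the 9 passed with array weights (15.1% of all genes) or under quantile normalization (28%). On TPM as deposited Cd3d was at -0.02, and the other three were at 0.16, 0.13 and 0.12. The 2 genes called there were Lck at 0.33 (adjusted p = 0.00406) and Ptprc at 0.46 (adjusted p = 0.0122). Library by library, Cd3e, Cd3g and Zap70 were below every SPF aCD3 library in F1, M3 and M4, while Zap70 was above every one in M1, M2 and M5. Leaving out 1 of the 12 libraries kept the call in 11 cases for Cd247 and in 10 each for Cd3d and Cd4, but in only 5 for Cd3g. The Cd3g call went without SPF aCD3 F1, F2, M2 or M3 or GF aCD3 F1, M3 or M4, at adjusted p of up to 0.157 (limma). Without GF aCD3 F1 none of the 9 passed (13.7% of all genes), and without M3 only Cd247 did (21.4%). Cd3e passed without SPF aCD3 F1 or GF aCD3 M1, M2 or M5, at -0.31 to -0.36 (adjusted p = 0.00881 to 0.0487, limma). Among the ratios, Cd3d to Cd3g stood 0.16 lower on the log2 scale in GF, at -0.51 ± 0.14 against -0.35 ± 0.06 (SD, n = 6 each, exact permutation p = 0.0238, adjusted p = 0.0571). It passed without GF aCD3 M5, at an adjusted p of 0.0148 by the exact permutation test.

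Whether the response to aCD3 itself differed with colonisation was tested as a difference of differences, GF response minus SPF response. No member passed in limma, beside 11.7% of all tested genes, 5.14% higher and 6.56% lower (624 and 796 genes, or 297 and 127 on TPM as deposited). The lowest p-values were those of Cd3d at -0.52 (95% interval -0.89 to -0.16, adjusted p = 0.0537), Cd4 at -0.27 (-0.50 to -0.04, adjusted p = 0.104) and Cd3e at -0.32 (-0.63 to -0.01, adjusted p = 0.141). Voom on recovered reads called 1 member, Cd3d at -0.53 (adjusted p = 0.0422), beside 15.1% of all genes. Without SPF isotype F3 or GF aCD3 M2, Cd3d passed alone, at -0.63 and -0.55, beside 14.7% and 24.1% of all genes. Without GF aCD3 M1 or M5 there were 2 calls, beside 20.2% and 24.8% of all genes. They were Cd3d at -0.60 with Cd4 at -0.32 in the first case, and Cd3d at -0.60 with Cd3e at -0.40 in the second. Zap70 stood at -0.38 (adjusted p = 0.181).

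The rest of the pathway was followed in a list of 36 other TCR signalling genes. Of the 35 tested in SPF, 27 (77.1%, beside 60.0% of all genes) passed with aCD3, 5 higher and 22 lower, with a median log2 fold change of -0.41. TPM as deposited gave 1 higher and 29 lower. By role, 3 of 4 kinases, 9 of 11 adaptors and 7 of 10 effectors fell, and none of these rose. Inhibitors went both ways, with 3 of 6 higher and 3 lower, and 2 of 4 surface partners rose. Of these rises, those of the inhibitors Csk and Ptpn6 and of the surface receptor Cd5, named after their values were seen, were called on scaled TPM and with voom but on none of the 3 other scalings, and on TPM as deposited stood at -0.14, -0.13 and -0.21. The Cd5 call (0.21, adjusted p = 0.0490, limma) held in 2 of 12 cases with 1 library left out. Over those cases the list gave 25 to 27 calls. The largest falls were in Trat1, an adaptor that associates with the TCR, from 66.3 ± 9.78 to 10.7 ± 2.01 scaled TPM (SD, n = 6; log2 fold change -2.54, adjusted p = 2.67e-06, limma), and in Rasgrp1, which activates RAS downstream of LAT, from 85.6 ± 6.10 to 24.1 ± 2.11 (-1.79, adjusted p = 9.98e-07). Isotype and aCD3 libraries did not overlap for either. The largest rises were in Ubash3b, a phosphatase that restrains TCR signalling, from 3.78 ± 0.71 to 9.46 ± 2.36 (1.11, adjusted p = 1.26e-05, limma), and in the adhesion receptor Cd2, from 80.1 ± 5.12 to 113 ± 10.5 (0.49, adjusted p = 3.68e-05). Cd2 was at 0.07 on TPM as deposited (adjusted p = 0.522).

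In GF, 3 of the 35 passed, or 8.57%, beside 9.81% of all tested genes and 4.16% as lower, so the share is close to that over all genes. All 3 were lower with aCD3: the adaptor Sit1 at -0.76, Rasgrp1 at -0.71 and Themis, a regulator of TCR signal strength, at -0.51 (adjusted p = 0.0413, 0.0409 and 0.0442, limma). Sit1 read 34.9, 38.8 and 35.8 scaled TPM in GF aCD3 M1, M2 and M5 and 108, 83.2 and 104 in F1, M3 and M4, beside 76.4 to 130.3 in GF isotype. Themis read 11.1, 10.4 and 9.89 against 19.8, 23.1 and 24.5, beside 18.9 to 26.5. Rasgrp1 read 30.5, 28.4 and 23.6 against 74.7, 81.4 and 79.2, beside 71.2 to 87.0. For each of these genes M1, M2 and M5 lay below every isotype library and the other three inside the isotype range. Leaving out 1 library at a time gave 0 to 16 called genes of the list. There were none without GF aCD3 M1, M2 or M5 and without GF isotype F2, F3, F4 or M1 to M5, and 15, 16 and 15 without F1, M3 and M4 of GF aCD3, beside the 28.4%, 27.4% and 26.5% of all genes given above. The list's counts thus moved with those of the whole table. The Sit1 and Rasgrp1 calls held in 5 of the 16 cases each and the Themis call in 3, at adjusted p of up to 0.163 (limma).

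Between the isotype groups only the costimulatory receptor Cd28 passed, 1 of 35 or 2.86% beside 1.63% of all genes, at -0.32 in GF (adjusted p = 0.0429, limma). On TPM as deposited it did not (-0.16, adjusted p = 0.420), and leaving out 1 library kept the call in 3 of 16 cases, at adjusted p of up to 0.112 (limma). Under aCD3, 15 passed between GF and SPF (42.9%, beside 32.8% of all genes), 12 higher in GF and 3 lower, or 29 higher on TPM as deposited, where 53.3% of all genes passed. With only the groups compared there were 4, beside 7.05% of all genes, and without GF aCD3 F1 there were 9, beside 13.7%. Trat1 was highest at 1.48, and Ubash3b (-0.60) and Cd28 (-0.51) lowest (adjusted p = 0.00404, 0.0159 and 6.08e-04, limma). Trat1 read 14.5, 13.8 and 15.4 scaled TPM in M1, M2 and M5 and 52.3, 66.6 and 89.0 in F1, M3 and M4, beside 7.50 to 12.9 in SPF aCD3 and 31.7 to 84.0 in GF isotype. All 6 GF libraries were above the SPF aCD3 range, but the fold change is a mean over 2 unlike sets of libraries. Ubash3b read 8.15, 8.20 and 10.3 in the first set, inside the SPF aCD3 range of 7.10 to 12.4, and 4.50, 4.10 and 3.62 in the second, below it. Its call went without GF aCD3 F1 or M4, at adjusted p of up to 0.0676 (limma). Cd28 did not split in this way, at 149.6 to 216 in GF aCD3 and 219 to 269.7 in SPF aCD3. The Trat1 and Cd28 calls held without any 1 of the 12 libraries, while Ubash3b and Cd28 were at -0.24 and -0.10 on TPM as deposited and did not pass.

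The difference of differences passed for 7 of the 35, or 20%, beside 11.7% of all tested genes. It rests on the same split of GF aCD3. Without F1 none passed, without M3 3 and without M4 2, while without M1, M2 and M5 12, 15 and 15 did. Of all genes, 2.12%, 4.29% and 3.90% passed in the first 3 cases and 20.2%, 24.1% and 24.8% in the other three, and the range over all 28 cases was 257 to 3005 genes. There were 4 without SPF isotype F2, M1, M2 or M3, SPF aCD3 F1, F2 or M2, or GF isotype M2 or M3, and 3 without SPF aCD3 M3. TPM as deposited gave 2, beside 3.48% of all genes. Trat1 at 1.88 and Rasgrp1 at 1.08 (adjusted p = 0.0190 and 0.0260, limma) stood highest, with Stim1, a calcium sensor, at 0.47 (adjusted p = 0.0288) and Cd2 at -0.37 (adjusted p = 0.0421) lowest. Leaving out 1 library kept the call in 27 of 28 cases for Trat1, 26 for Rasgrp1, 24 for Stim1 and 12 for Cd2. Without GF aCD3 F1 none of these passed, Trat1 at an adjusted p of 0.0612 (limma), and the log2 value of Trat1 ranged from 1.60 to 2.10 over all cases. On TPM as deposited Trat1 passed at 2.10 (adjusted p = 0.0359), while Rasgrp1 at 1.32 (adjusted p = 0.0503) and Cd2 at -0.12 (adjusted p = 0.510) did not.

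**Figure D4:**
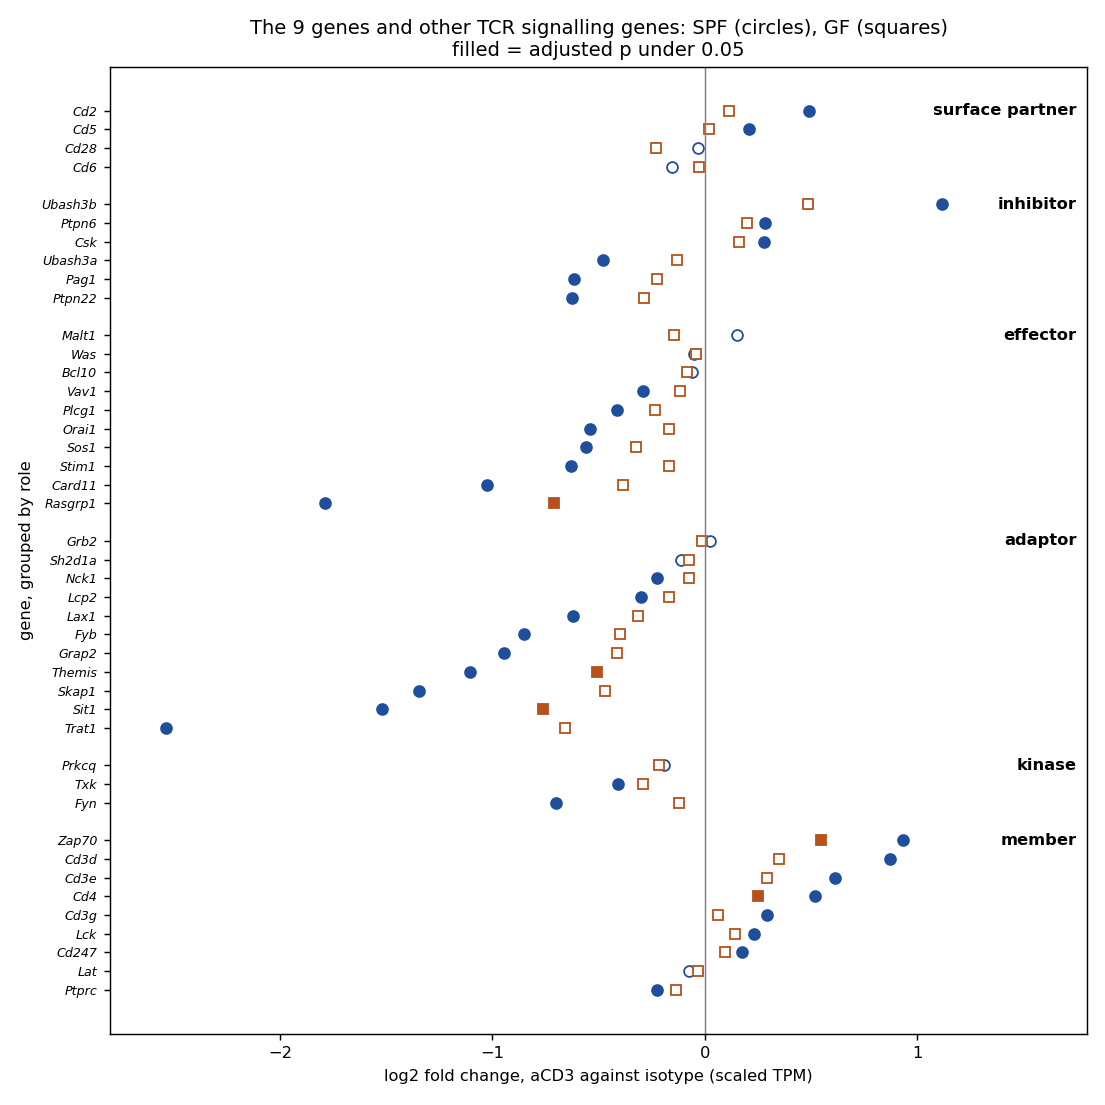
Log2 fold change with aCD3 on scaled TPM (x axis) of the 9 genes and of other TCR signalling genes from the list, grouped by role (y axis), in SPF (circles) and GF (squares), with filled symbols for an adjusted p under 0.05. In SPF, adaptors, effectors and kinases lie mostly left of 0, down to Trat1 at -2.54, while 7 of the 9 genes lie right of it.

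Cd3g, Cd3d and Cd3e stand side by side on chromosome 9. Cd3g (chr9:44969572-44980431, minus strand) and Cd3d (chr9:44981786-44987052, plus strand) start 1355 bases apart and run away from each other, and Cd3e (chr9:44998743-45009611, minus strand) ends 11691 bases beyond Cd3d. On mm10 the rows of the other members are Cd247 at chr1:165788681-165862112 (plus strand), Zap70 at chr1:36778984-36782820 (plus), Ptprc at chr1:138062859-138175305 (minus), Lck at chr4:129548344-129558372 (minus), Cd4 at chr6:124864693-124888200 (minus) and Lat at chr7:126363828-126369568 (minus). Across the 28 libraries, Cd3e went with Cd3d (Pearson's r = 0.93) more closely than either went with Cd3g (0.80 and 0.81) or Cd247 (0.55 and 0.48). The points share groups, scaling factors and the histone share, so these are descriptions. Cd3e went as closely with genes on other chromosomes, Cd4 (0.93) and Zap70 (0.92), and Zap70 ran against Ptprc (-0.69). Because these neighbours moved by unlike amounts, their start regions are shown: 250 bases before to 30 after the RefSeq start on GRCm38.p6, 5′ to 3′ on each gene's strand. Capitals mark the letters CAGNTG (an E-box, bound by basic helix-loop-helix factors) or GGAAGT (a core bound by ETS factors) on either strand.
Cd3g, chr9:44980402-44980681, minus strand: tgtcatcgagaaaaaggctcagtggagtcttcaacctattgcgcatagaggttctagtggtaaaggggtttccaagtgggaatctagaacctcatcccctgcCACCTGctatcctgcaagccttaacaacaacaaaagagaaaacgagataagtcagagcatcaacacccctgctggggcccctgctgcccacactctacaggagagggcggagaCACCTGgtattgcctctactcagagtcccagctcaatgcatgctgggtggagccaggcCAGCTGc
Cd3d, chr9:44981536-44981815, plus strand: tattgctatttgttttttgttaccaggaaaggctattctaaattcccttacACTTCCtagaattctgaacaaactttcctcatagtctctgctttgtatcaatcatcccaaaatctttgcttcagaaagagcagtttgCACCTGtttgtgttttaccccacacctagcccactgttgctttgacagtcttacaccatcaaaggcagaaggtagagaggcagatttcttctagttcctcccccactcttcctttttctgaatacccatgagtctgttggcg
Cd3e, chr9:45009582-45009861, minus strand: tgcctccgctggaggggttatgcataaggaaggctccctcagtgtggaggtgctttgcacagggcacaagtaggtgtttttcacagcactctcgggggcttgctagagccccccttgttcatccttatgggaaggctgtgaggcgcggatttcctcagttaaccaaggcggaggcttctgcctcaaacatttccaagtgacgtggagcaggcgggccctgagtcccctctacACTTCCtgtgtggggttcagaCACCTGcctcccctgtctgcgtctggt
The window of Cd3g holds CAGNTG 3 times and no GGAAGT, while those of Cd3d and Cd3e hold each once. Of 32851 RefSeq windows of this length, 48.9% hold CAGNTG and 22.3% hold GGAAGT, so a match is common. TGTGGT, a core bound by RUNX factors and held by 15.6% of windows, was in none of these windows. The letters overlap nowhere in these windows.

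Of the genes next to the members, Lag3 lies 16159 bases from Cd4 and rose with aCD3 in SPF from 13.4 ± 4.64 to 829.7 ± 132 scaled TPM (SD, n = 6; log2 fold change 5.89, adjusted p = 2.89e-06, limma), while Gpr162 on the other side, with at most 24 reads, was at 0.53 (adjusted p = 0.0334). Ube4a, 3972 bases beyond Cd3g, was at 0.32 (adjusted p = 6.56e-04, limma) on scaled TPM. Creg1 and Pou2f1, which flank Cd247, were at -0.41 and -0.58, and Hdac1 beside Lck at 0.52. Reads of the microRNA rows Mir8119 and Mir7058 fall inside Lck and Lat, on the same strand, so they cannot be told apart from the host genes' reads.

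The tested genes whose levels most resembled the mean of the 4 CD3 chains over the 28 libraries were Clic1, a chloride intracellular channel protein (r = 0.96), Gdi2, a regulator of RAB proteins (0.95), the histone genes Hist3h2ba (0.95) and Hist1h4i (0.95), and Ech1, an enzyme of fatty acid oxidation (0.95). The likeness is Pearson's r on the mean of the chains' standardised log2 values, and the points share the groups and the split of GF aCD3 described above.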

How the data were processed

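RNA of sorted intestinal CD4+ T cells was measured in 28 libraries. TPM values were made by the authors with HOMER's analyzeRepeats.pl on mm10, with 1 row a gene, per the file headers. Aligner settings and strand use are not given in the sources used here, and the labels name both a total RNA kit and polyA RNA. The deposited table has 54 columns, of which 28 matched a sample by name and 26 were not used. TPM times row length gave whole read counts for 100% of the low values checked (within 0.1), as deposited.

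TPM was divided by each library's median-of-ratios factor, over the 12062 genes above 0 in all libraries. The log2 of the result plus 1 was fitted in limma 3.58.1 (R 4.3.3), with 4 groups, a sex term and a trend, over the 12140 genes at 1 or more in at least 6 libraries. P-values were adjusted by Benjamini-Hochberg, and 0.05 was the threshold. Ratios were compared by exact permutation (SciPy 1.17.1). The fit was tested on simulated data, where it recovered 73.2% of 97 genes changed 1.5-fold and 100% of 98 changed 2-fold. It called 13 of 12239 unchanged genes. Far fewer genes were changed there than passed in SPF, and no shift of the histone genes as a set was put in. The simulation therefore did not test the scaling, or changes under 1.5-fold. Python 3.11.15, pandas 2.3.3 and NumPy 2.4.6 were used.

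Reads per library in genes ranged from 6765527 to 17860620, and the members' fewest reads are given in the text. Intervals are those of the fit. The members and lists were chosen with earlier results of these data known, and the ratios after their values had been seen. Genes named beside the members are the 2 highest and 2 lowest called genes of the pathway list in each comparison, the 5 genes most like the CD3 chains, and the nearest neighbours, and some of the genes so chosen are not reported here. Alternatives were other scalings, pseudocounts, filters, groups, covariates, weights, voom, a replicate block and leaving out each library. The labels do not say that libraries are separate animals, so p-values measure the spread between these libraries.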

Additional observations from a re-analysis of the deposited data

Results flagged for a closer look

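A library stood far from the other libraries of its group in 4 of the 36 checks of a member's scaled TPM in a group, where chance gives about 1 in 20. Cd3d read 314.5 in SPF aCD3 M2, and 261 to 281 in the other 5 libraries. Lck in the same library read 326.5, beside 264 to 281. Ptprc read 143.2 in SPF isotype F2, beside 125 to 131, and 145.3 in GF isotype F4, beside 119 to 131. Leaving out SPF aCD3 M2 kept the Cd3d and Lck calls in SPF. Leaving out SPF isotype F2 took the Ptprc call away, at -0.20 (adjusted p = 0.0808, limma).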

How the results depend on the processing

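Of 45 member values (9 genes in 5 contrasts), 19 turned direction on TPM as deposited, 13 on TPM rescaled without Rn45s and histone genes and 11 under quantile normalization. A pseudocount of 0.1 or 5, or a filter of at least 5, changed no call or direction among them. Members called in SPF with aCD3 were 8 in the fit reported, 5 on TPM as deposited, 5 without Rn45s and histone genes and 4 under quantile normalization, beside 60.0%, 64.8%, 58.6% and 58.8% of all genes. In GF the count was 2, Zap70 and Cd4, beside 9.81% of all genes. It was also 2 without Rn45s and histone genes (6.10% of all genes), but with Cd3d (adjusted p = 0.0469) in place of Cd4 (0.0690, limma). With the block of sample numbers as a covariate it was 3 (19.6%), where Cd3e passed too. It was 1 on TPM as deposited (7.08%) and 1 under quantile normalization (9.83%). With no filter on low values (0.0483%) or only the groups compared (0%) it was 0. It was 4 with array weights (15.5%) and 4 with no sex term (17.5%). Between the isotype groups it was 0 (1.63% of all genes), 2 on TPM as deposited (7.17%) and 4 without Rn45s and histone genes (19.8%). In the last case 2276 of all genes were higher in GF and 112 lower. Between the aCD3 groups it was 4 (32.8% of all genes). Under the 3 scalings in the order above it was 2 (53.3%), 2 (45.8%) and 0 (28%). It was 1 with only the groups compared (7.05%) and 0 with array weights (15.1%). For the difference of differences it was 0 (11.7% of all genes), and 1 with no sex term (12.2%) and 1 with voom on recovered reads (15.1%).

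In SPF, Cd3g turned to -0.13 on TPM as deposited and -0.068 by quantile, Lck to -0.19 and -0.12, and Cd247 to -0.23 on TPM as deposited. In GF, Cd3g turned to -0.11 and -0.072, and Cd247 and Lck to -0.070 and -0.025 on TPM as deposited. Between the isotype groups, TPM as deposited gave 0.096 for Cd3g, 0.15 for Cd4 and 0.12 for Ptprc. Without Rn45s and histone genes the values were 0.14 for Cd3g, 0.036 for Cd247, 0.19 for Cd4 and 0.16 for Ptprc, and by quantile 0.032 for Cd4 and 0.0051 for Ptprc. Between the aCD3 groups, TPM as deposited gave 0.13 for Cd3e, 0.12 for Cd3g, 0.16 for Cd247, 0.13 for Cd4, 0.33 for Lck, 0.25 for Zap70 and 0.24 for Lat. Without Rn45s and histone genes the same genes stood at 0.021, 0.0097, 0.055, 0.025, 0.22, 0.14 and 0.14. By quantile, Cd3e was at 0.087, Lck at 0.19, Zap70 at 0.092 and Lat at 0.049. With only the groups compared, Ptprc was at -0.000346. In the difference of differences, Cd3g stood at 0.022, Cd247 at 0.16 and Lck at 0.17 on TPM as deposited. Without Rn45s and histone genes Cd247 was at 0.019 and Lck at 0.019, by quantile Cd247 was at 0.018 and Lck at 0.13, and with array weights Lat was at -0.060. TPM as deposited and TPM without Rn45s and histone genes differ from scaled TPM by 1 factor a library. The text gives the median shifts of all genes on the first, to which 0.20 for the difference of differences is added here. On the second they were -0.13 in SPF, -0.044 in GF, 0.18 between the isotype groups, 0.26 between the aCD3 groups and 0.077 for the difference of differences. Quantile normalization moves genes by unlike amounts, and there the medians lay between -0.049 and 0.026. The cause of each turn was not tested.

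Leaving out 1 library gave 6 to 8 called members in SPF (56.7% to 59.7% of all genes) and 0 to 4 in GF (0% to 28.4%). Between the isotype groups it gave 0 (0.956% to 1.85%) and between the aCD3 groups 0 to 5 (13.7% to 40.5%). For the difference of differences it gave 0 to 2 (2.12% to 24.8%). The values that changed sign ranged from -0.12 to 0.013 for Lat in SPF, from -0.020 to 0.12 for Cd3g and -0.077 to 0.023 for Lat in GF. Between the isotype groups they ranged from -0.00026 to 0.050 for Cd3e, -0.032 to 0.021 for Cd4 and -0.032 to 0.063 for Lck. For Ptprc between the aCD3 groups the range was -0.0092 to 0.12, and for Lat in the difference of differences -0.061 to 0.095. Among ratios, Cd4 to Lck ranged from -0.071 to 0.024 between the isotype groups. Between the aCD3 groups the ranges were -0.047 to 0.024 for Cd3e to Cd3g, -0.023 to 0.13 for Cd247 to Cd3g, -0.17 to 0.025 for Zap70 to Lck and -0.19 to 0.096 for Lat to Zap70. In GF it was -0.035 to 0.11 for Cd247 to Cd3g.

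Libraries with the same sex letter and number did not deviate together (correlations from -0.21 to 0.21, with 5 of 22 best with their own number), so the number was not taken as a pairing. With the replicate block, 0 members were called in GF, where 0 of all genes passed, and 3 of the 45 member values lost their call. Over all genes, the alternatives other than leaving out a library called 5829 to 7995 in SPF, 0 to 2383 in GF, 148 to 2388 between the isotype groups, 856 to 6496 between the aCD3 groups and 424 to 1832 for the difference of differences. Voom on recovered reads called 7170, 952, 227, 4364 and 1832. Depth limits the value of Lat and Zap70 in single libraries most, at 759 and 808 reads in the shallowest.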
